A study of Mus musculus with 6 samples.

Results

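Transcripts of 6 genes of the plasminogen activation and tissue factor systems were compared between serrated polyps and the cecal tissue around them: Plau, Plat, Plaur, Serpine2, F3 and Tfpi. The members were chosen by gene symbol, with earlier results of these data known. Each matched 1 of the 37991 mouse Ensembl gene identifiers in the count tables. RNA was sequenced from 3 HBUS mice (numbered 1119, 1192 and 1199), each giving 1 serrated polyp of the cecum and 1 piece of normal distal cecum next to it, collected after 60 weeks. In this strain gut epithelial cells express 2 transgenes, one for HB-EGF, an EGF receptor ligand, and one for US28, a chemokine receptor of viral origin, so polyp and surrounding tissue alike carry both. No mouse without the transgenes was part of the comparison, so the surrounding tissue is the only control.

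Plasminogen circulates as an inactive zymogen, and the serine proteases urokinase (Plau) and tissue-type plasminogen activator (Plat) cut it into plasmin, which digests fibrin and matrix proteins. The urokinase receptor (Plaur) is a lipid-anchored protein that holds urokinase at the cell surface, and serpins such as protease nexin-1 (Serpine2) trap and inactivate the activators. Tissue factor (F3) is the membrane receptor for coagulation factor VII that starts the clotting cascade, and tissue factor pathway inhibitor (Tfpi) blocks that complex. In the gut wall these genes are used by epithelial, stromal, endothelial and myeloid cells, and whole tissue was measured here, so more cells of a type and more RNA per cell cannot be told apart.

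The libraries held 6632645 to 13350119 counts, and the 2 mitochondrial rRNA genes took 46.3% to 75.3% of them, leaving 1852065 to 5096066 counts for other genes. A floor of 3 counts corresponded to 0.214 to 0.676 CPM, highest in the surrounding library of mouse 1199. Levels are in CPM, each count divided by its library's total after scaling for composition (TMM), and fold changes are polyp over surrounding tissue. All 10 epithelial marker genes, among them Epcam and Krt8, were tested, and their summed level was 4046 to 6918 CPM in surrounding tissue and 6604 to 8660 CPM in polyps. P-values of the paired tests rest on how the difference between polyp and surrounding tissue varied among these 3 mice. In the fits of single genes they also draw on the spread of the other genes.

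Of the 6 genes, 2 rose in polyps and 0 fell: Plau and Serpine2 (edgeR's quasi-likelihood test paired by mouse, at a Benjamini-Hochberg adjusted p under 0.05). Over all 10960 genes tested, 1.72% were called higher and 1.04% lower. Fitted log2 fold changes were positive for all 6, with a median of 2.51, against a median of -0.02 over all genes tested. All 6 were fitted as at least 2-fold higher, as were 6.27% of all genes tested. In 4 of the 6 (Plaur, Plat, Serpine2 and F3) every polyp lay above every surrounding sample, which held for 9.84% of all genes tested. In 5 of the 6, all but Tfpi, the polyp exceeded its own surrounding tissue in each mouse, as did 19.6% of all genes tested. Because the members were chosen with earlier results of these data known, these shares are a description and not a test. The count of members called higher moved with the analysis: DESeq2 called 5 (2.97% of all genes tested) and limma-voom the same 5 (2.3%), edgeR without a filter on low counts called 4 (2.07%) and edgeR without the pairing called 0 (0.465%). Without mouse 1119 it was 0 (0.415%), without mouse 1192 it was 3 (1.41%) and without mouse 1199 it was 2, Plat and F3 (0.682%).

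**Figure D1:**
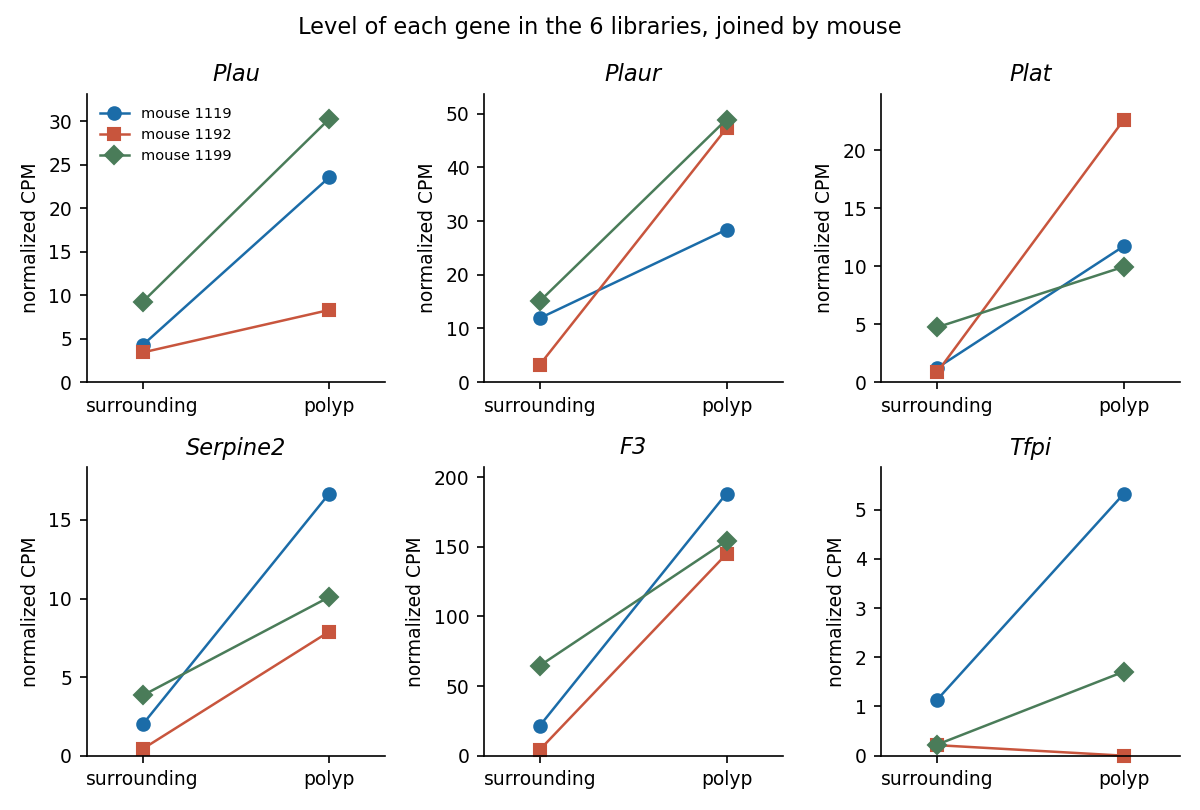
Normalized CPM (y axis, linear from 0, a different scale in each panel) of the 6 genes in surrounding tissue and polyp (x axis). Each line joins the 2 libraries of a mouse. All lines rise except that of Tfpi in mouse 1192, where the polyp had 0 counts, and the F3 levels of the 3 polyps (145 to 188 CPM) lie closer together than those of the surrounding samples (4.34 to 64.7 CPM).

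Urokinase transcript rose in polyps. Plau (ENSMUSG00000021822) was at 4.26, 3.42 and 9.24 CPM in the surrounding tissue of mice 1119, 1192 and 1199, and at 23.6, 8.31 and 30.3 CPM in their polyps. The polyp of mouse 1192 was low, below the surrounding tissue of mouse 1199, so the groups overlapped even though each polyp exceeded its own surrounding tissue. Within mice the polyp held 5.53, 2.43 and 3.28 times the surrounding level, and the fitted rise was 3.53-fold (log2 fold change 1.82 ± 0.32 SE, edgeR adjusted p = 0.0234). Leaving out mouse 1119 or mouse 1199 ended the call (edgeR adjusted p = 0.144 and 0.197), and so did ignoring the pairing (adjusted p = 0.151).

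Tissue-type plasminogen activator was a less abundant transcript with a larger fitted difference that missed the threshold. Plat (ENSMUSG00000031538) was at 1.23, 0.854 and 4.73 CPM in surrounding tissue and at 11.7, 22.6 and 9.95 CPM in polyps, in the same order of mice. The groups did not overlap, and mouse 1192 had both the lowest surrounding level and the highest polyp level. The polyp held 9.52, 26.5 and 2.10 times the surrounding level, with a log2 fold change of 2.999 ± 0.66 (edgeR adjusted p = 0.0603). Plat passed with DESeq2 (adjusted p = 7.84e-05) and limma-voom (adjusted p = 0.0233), and with edgeR without mouse 1199 (log2 fold change 3.97, adjusted p = 0.0361). Without mouse 1192 the log2 fold change was 2.08 (edgeR adjusted p = 0.0875). Without mouse 1119 it was 2.86 (edgeR adjusted p = 0.289), and without the pairing the edgeR adjusted p was 0.0753. Plat passed under 4 of 12 alternatives. The surrounding libraries held 13, 12 and 21 Plat counts, and for 12 counts the exact Poisson 95% interval is 6.2 to 20.96, which covers counting error only.

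The receptor gene Plaur (ENSMUSG00000046223) was at 11.9, 3.28 and 15.1 CPM in surrounding tissue and at 28.4, 47.3 and 48.9 CPM in polyps. The groups did not overlap, and the fold within mice ran from 2.38 (mouse 1119) over 3.24 (mouse 1199) to 14.4 (mouse 1192). The log2 fold change of 2.21 ± 0.50 missed the threshold in edgeR (adjusted p = 0.0908). It passed in DESeq2 (adjusted p = 1.00e-05), in limma-voom (adjusted p = 0.0238) and in edgeR without mouse 1192 (adjusted p = 0.0154), where the fitted log2 fold change was smaller, at 1.43. Without mouse 1119 or 1199 the edgeR adjusted p was 0.0862 and 0.216, and without the pairing 0.128. Plaur passed under 4 of 12 alternatives.

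Protease nexin-1, a serpin that binds urokinase, tissue-type activator and thrombin, also rose in polyps. Serpine2 (ENSMUSG00000026249) was at 1.99, 0.427 and 3.83 CPM in surrounding tissue and at 16.7, 7.896 and 10.1 CPM in polyps. All polyps lay above all surrounding samples, by 8.39, 18.5 and 2.64 times within mice 1119, 1192 and 1199. The fitted rise was 7.01-fold (log2 fold change 2.81 ± 0.54, edgeR adjusted p = 0.0334). The surrounding library of mouse 1192 held 6 Serpine2 counts (exact Poisson 95% interval 2.2 to 13.1), so the fold in that mouse is known only roughly. Without mouse 1119 or 1199 the edgeR adjusted p was 0.1802 and 0.056 (log2 fold changes of 2.67 and 3.53), and without the pairing 0.107.

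Tissue factor was the most abundant of the 6, and its level varied widely between mice in surrounding tissue and little in polyps. F3 (ENSMUSG00000028128) was at 21.6, 4.34 and 64.7 CPM in the surrounding tissue of mice 1119, 1192 and 1199, a 14.9-fold range. In polyps it was at 188, 145 and 154 CPM, a 1.2996-fold range, and all polyps lay above all surrounding samples. The fold within mice was 8.72, 33.3 and 2.38, highest where the surrounding level was lowest. The fitted log2 fold change was 3.07 ± 0.89 and did not pass in edgeR (adjusted p = 0.274), where F3 ranked 48th of 10960 by size of rise and 1225th by p. With a spread that was not robust, edgeR gave F3 the same log2 fold change and an adjusted p of 0.0507. DESeq2 (adjusted p = 0.0206), limma-voom (adjusted p = 0.013) and edgeR without mouse 1199 (log2 fold change 4.02, adjusted p = 0.0365) called it. The edgeR adjusted p of F3 was 0.746 without mouse 1119, 0.354 without the pairing and 0.836 without a filter on low counts. Without mouse 1192 the log2 fold change fell to 2.15 (edgeR adjusted p = 0.166). These are well-counted values, from 61 counts in the surrounding library of mouse 1192 (exact Poisson 95% interval 46.7 to 78.4) to 1761 in its polyp.

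The inhibitor of tissue factor was near the floor. Tfpi (ENSMUSG00000027082) had 12, 3 and 1 counts in surrounding tissue and 44, 0 and 12 counts in polyps of mice 1119, 1192 and 1199. That is 1.14, 0.214 and 0.225 CPM against 5.32, 0 and 1.71 CPM, and the groups overlapped. In mouse 1119 the polyp held 4.68 times the surrounding level. The polyp of mouse 1192 had 0 counts (exact Poisson 95% interval 0 to 3.69), in a library where the floor of 3 counts is 0.247 CPM. With 3 counts against 0, the direction in mouse 1192 cannot be read. In mouse 1199 the polyp held 7.57 times the surrounding level, which rested on 1 count. The fitted log2 fold change of 1.33 ± 1.42 (edgeR adjusted p = 0.736) did not pass. It was 2.34 without mouse 1192 and 0.41 without mouse 1199 (edgeR adjusted p = 0.201 and 0.974), and Tfpi was not tested without mouse 1119. With so few Tfpi counts, no ratio of F3 to Tfpi was computed.

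**Figure D2:**
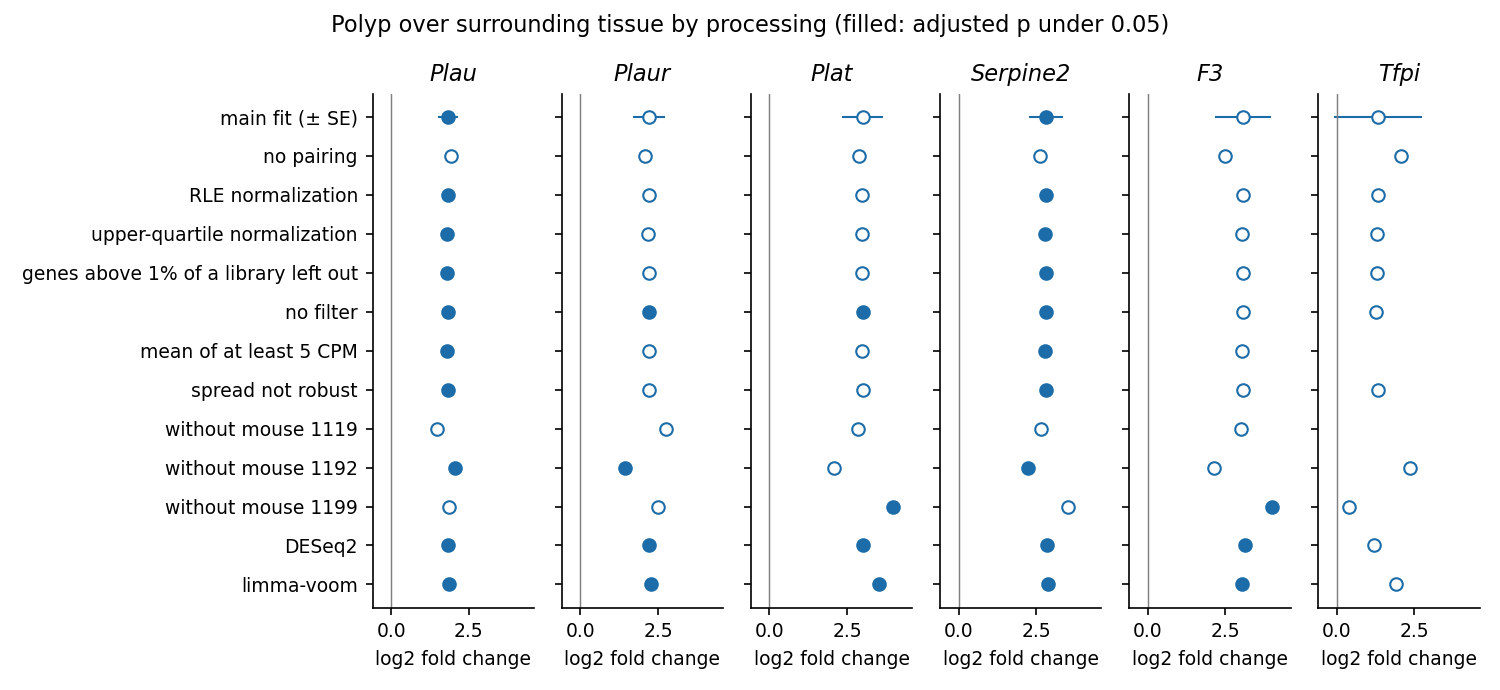
Log2 fold change, polyp over surrounding tissue (x axis), of each gene under the main fit (top, with its standard error) and 12 alternatives (y axis). Filled points passed at an adjusted p under 0.05; Tfpi was not tested under 2 alternatives. Every point lies above 0, and DESeq2 and limma-voom called the 5 genes other than Tfpi.

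Promoter sequences from RefSeq (GRCm38.p6) were available for 4 of the 6 genes, Plaur, F3, Serpine2 and Tfpi; Plau and Plat have no entry. They were searched for TGANTCA, the letters bound by AP-1, the Fos and Jun dimer known to act at many protease and tissue factor genes, and for the GC box GGGCGG bound by Sp1 family factors. Each window held the 250 bases before an annotated start, and both strands were read. TGANTCA was found in F3 and Plaur and not in the windows of Serpine2 and Tfpi, and 6.75% of the 32851 windows in the table hold it. F3 holds it in a pair, TGAATCA beginning 146 bases and TGAGTCA beginning 135 bases before the start, and Plaur holds TGACTCA beginning 69 bases before its start. A match is a description of the letters and says nothing of binding. Shown first are F3 (chr3:121723287-121723536, plus strand) and Plaur (chr7:24462233-24462482, plus strand), with the TGANTCA matches in capitals, because they are the members that hold them.
F3: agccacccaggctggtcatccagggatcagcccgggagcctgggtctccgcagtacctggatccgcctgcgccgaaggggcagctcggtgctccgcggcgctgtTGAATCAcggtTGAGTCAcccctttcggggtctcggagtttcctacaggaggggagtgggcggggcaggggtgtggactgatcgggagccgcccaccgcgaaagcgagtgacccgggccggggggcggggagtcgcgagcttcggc
Plaur: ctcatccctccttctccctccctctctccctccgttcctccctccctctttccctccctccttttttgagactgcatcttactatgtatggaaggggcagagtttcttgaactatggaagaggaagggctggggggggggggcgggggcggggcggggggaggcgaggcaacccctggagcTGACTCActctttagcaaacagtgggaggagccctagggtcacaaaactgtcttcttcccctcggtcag
Serpine2 (chr1:79858666-79858915, minus strand) is shown as the member of another kind, with 6 GC boxes in capitals, some of them overlapping. F3 and Plaur hold 3 GC boxes each, each window of Tfpi holds 1, and 32.7% of all windows hold at least 1.
Serpine2: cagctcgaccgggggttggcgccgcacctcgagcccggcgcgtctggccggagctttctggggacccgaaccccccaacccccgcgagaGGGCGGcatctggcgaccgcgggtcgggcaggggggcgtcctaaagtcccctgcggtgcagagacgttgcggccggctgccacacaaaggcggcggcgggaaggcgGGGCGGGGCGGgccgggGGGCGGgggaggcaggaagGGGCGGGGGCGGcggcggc

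Per kilobase of annotated exon, F3 was the most abundant of the 6 in both tissues, and the order of the means was the same in both: F3, Plaur, Plau, Plat, Serpine2, Tfpi. In surrounding tissue F3 stood at 11.96 ± 12.3 CPM per kilobase (mean ± SD, n = 3 mice), Plaur at 3.86 ± 2.34 and Plau at 2.38 ± 1.33. Plat followed at 0.364 ± 0.343, Serpine2 at 0.251 ± 0.206 and Tfpi at 0.0961 ± 0.0969. Here the ranges of all neighbours in the order overlapped, except that every Plau value lay above every Plat value. In polyps F3 stood at 64.3 ± 9.04 CPM per kilobase, clear of Plaur at 15.9 ± 4.36, and the ranges of every later pair of neighbours overlapped (Plau 8.76 ± 4.76, Plat 2.37 ± 1.10, Serpine2 1.39 ± 0.55, Tfpi 0.429 ± 0.497). The exon lengths are those of a later annotation and count every isoform, so these levels are approximate.

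The mice did not rank the same way for all genes. Mouse 1192 had the largest polyp difference for F3, Plat, Serpine2 and Plaur (log2 differences of 5.06, 4.73, 4.21 and 3.85) and the smallest for Plau (1.28). Mouse 1199 had the smallest for F3, Plat and Serpine2 (1.25, 1.07 and 1.40). In the 5 genes other than Tfpi the surrounding sample of mouse 1192 was the lowest of the 3 and that of mouse 1199 the highest. The surrounding library of mouse 1199 stood apart from the rest: it had the largest share of mitochondrial rRNA (75.3%), the fewest other counts (1852065) and the smallest TMM factor (0.593, against 0.973 to 1.43 in the others). The part of these library properties in its high levels and small folds was not tested.

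Ratios of 2 members within a library do not depend on scaling, and 4 were computed. The activators against each other, and against the inhibitor Serpine2, showed no common direction. Plau over Plat, in counts, was 3.46, 4.0 and 1.95 in surrounding tissue of mice 1119, 1192 and 1199 and 2.01, 0.367 and 3.04 in polyps, a mean log2 difference of -1.20 ± 2.07 (SD, n = 3 pairs, exact sign-flip permutation p = 0.5). Plau over Serpine2 went from 2.14, 8.0 and 2.41 to 1.41, 1.0521 and 3.0 (mean log2 difference -1.07 ± 1.67, exact permutation p = 0.5). Both ratios were lower in the polyp in mice 1119 and 1192 and higher in mouse 1199. Plat over Serpine2 moved least, by 0.13 ± 0.42 (exact permutation p = 0.75), and its direction turned without mouse 1192 (-0.07). Plaur over Plau, receptor against ligand, moved by 0.45 ± 1.94 (exact permutation p = 1.0) and was -0.62 without mouse 1192. With 3 pairs the exact two-sided test cannot go below p = 0.25, and adjusted over the 4 ratios every p was 1.0.

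**Figure D3:**
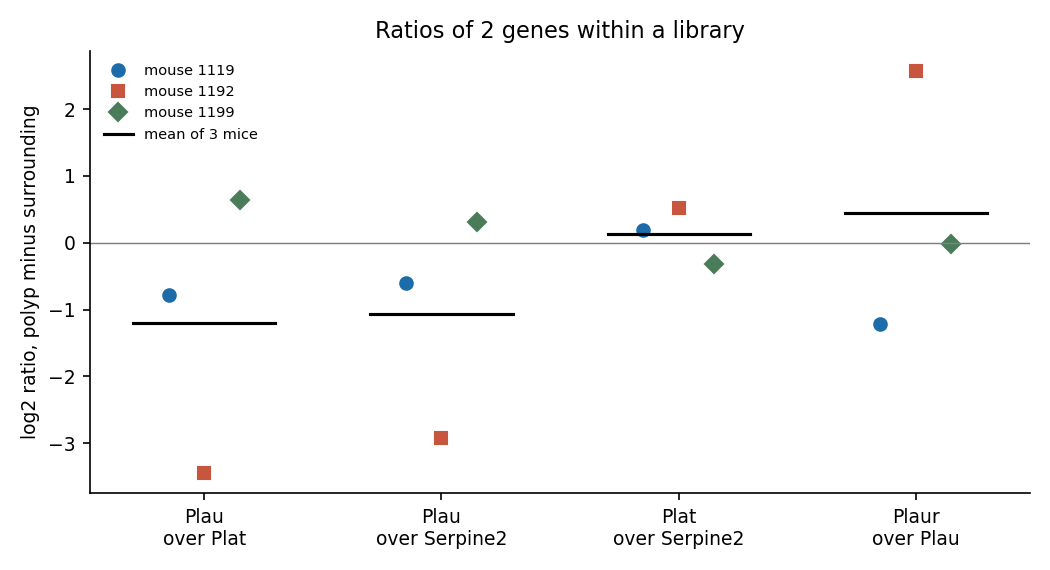
Log2 ratio of 2 genes within a library, polyp minus surrounding tissue of the same mouse (y axis), for 4 pairs of genes (x axis); points are mice and black lines their mean. Mouse 1192 is the lowest for Plau over Plat (-3.45) and Plau over Serpine2 (-2.93) and the highest for Plaur over Plau (2.57).

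Other genes of plasminogen activation and its control were measured from a list of 19, of which 18 were in the tables and 8 were tested. Of these 8, 1 rose and 0 fell, with a median log2 fold change of 0.13 against -0.02 over all genes. Anxa2, an annexin that binds plasminogen and tissue-type activator at the cell surface, rose 2.30-fold from 273 ± 108 to 599.5 ± 68.4 CPM (n = 3, edgeR adjusted p = 0.0153), and lost its call without mouse 1119 or without the pairing. Its partner S100a10 was at 79.3 ± 45.2 and 112 ± 10.2 CPM (adjusted p = 0.269), and Hgf, a growth factor activated by serine proteases, at 2.09 ± 1.42 and 5.90 ± 3.60 CPM (adjusted p = 0.231). Eno1, a glycolytic enzyme that also binds plasminogen at the cell surface, was at 117 ± 13.5 and 138 ± 8.68 CPM (adjusted p = 0.503). The substrate gene Plg, made by the liver, had 0 counts in all 6 libraries. Serpinb2, a serpin that inhibits urokinase, had 4, 0 and 0 counts in surrounding tissue and 7, 0 and 1 in polyps and was not tested.

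Of 27 coagulation and protease-activated receptor genes, 26 were in the tables and 12 were tested, of which 3 rose and 0 fell (median log2 fold change 0.45). Procr, the endothelial protein C receptor, was at 0.758, 1.14 and 1.80 CPM in surrounding tissue and at 5.20, 11.4 and 8.25 CPM in polyps, without overlap. It rose 6.87-fold (log2 fold change 2.78 ± 0.48, edgeR adjusted p = 0.0234), and did not pass without mouse 1119 or 1199. The thrombin receptor gene F2r (PAR1) was at 3.31, 2.42 and 9.02 CPM in surrounding tissue and at 17.4, 6.74 and 25.7 CPM in polyps. As for Plau, the polyp of mouse 1192 was below the surrounding tissue of mouse 1199. F2r rose 3.46-fold (log2 fold change 1.79 ± 0.32, edgeR adjusted p = 0.0261), and lost its call without mouse 1119, without mouse 1199 and without the pairing. Anxa5, which covers exposed phosphatidylserine and slows clotting on it, rose 5.16-fold from 23.1 ± 18.7 to 97.9 ± 11.2 CPM (n = 3, edgeR adjusted p = 0.0153), and lost its call without mouse 1119, without mouse 1192 and without the pairing. F2rl1 (PAR2), the receptor cleaved by trypsin-like proteases and by the tissue factor complex, was at 73.97 ± 5.85 and 72.6 ± 16.1 CPM (log2 fold change -0.05 ± 0.16, adjusted p = 0.913). Gas6, a vitamin K-dependent ligand of TAM receptors, was at 47.4 ± 13.3 and 28.99 ± 6.97 CPM (adjusted p = 0.0708). The 3 fibrinogen chain genes and the factor VII and XI genes, which are liver products, had 0 counts in every library.

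Of 15 serine proteases and inhibitors used by epithelium, 12 were tested, and 1 rose and 0 fell (median log2 fold change 0.18). That gene was Prss22, a tryptase-like protease, at 2.08, 0.498 and 6.76 CPM in surrounding tissue and 18.01, 13.8 and 18.8 CPM in polyps (7.86-fold, edgeR adjusted p = 0.0355); it did not pass without mouse 1119 or without the pairing. Serpinb6a, Prss23 and Serpinb5, next by p, had log2 fold changes of 0.42 ± 0.14, 0.55 ± 0.21 and 0.45 ± 0.18 and edgeR adjusted p between 0.211 and 0.296.

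**Figure D4:**
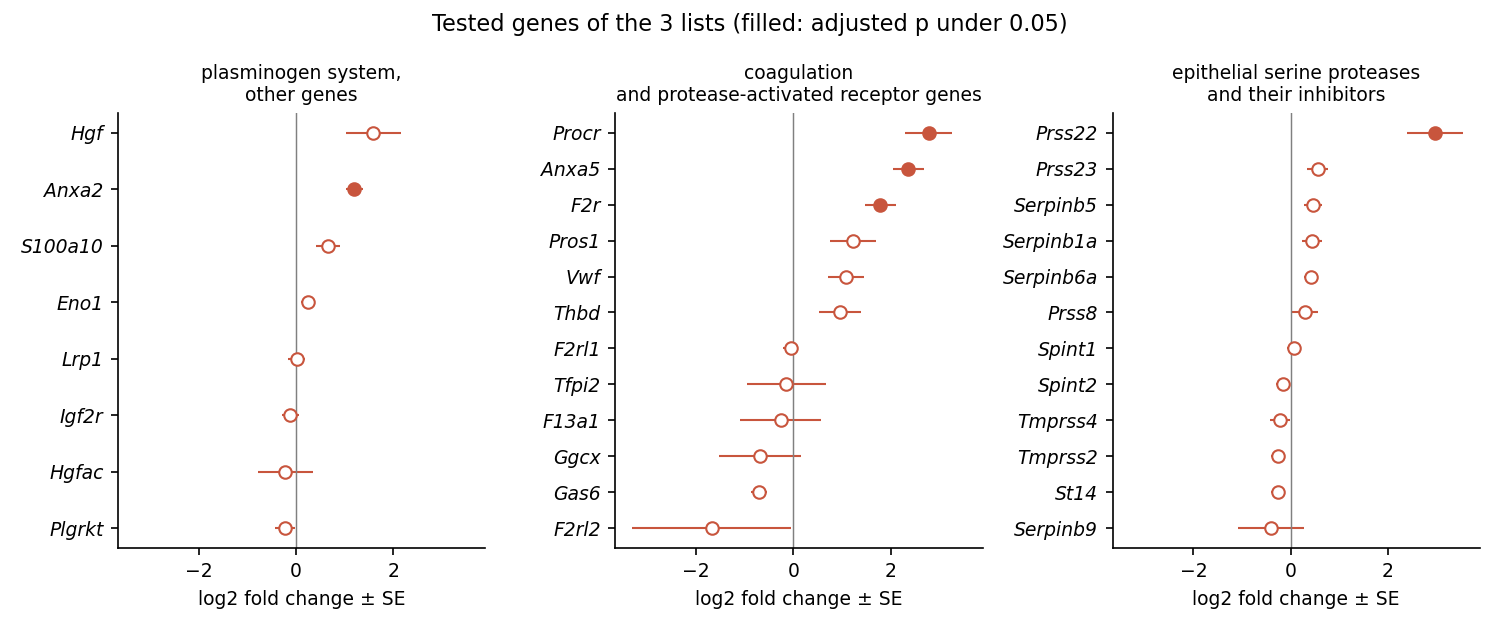
Log2 fold change, polyp over surrounding tissue, with standard error (x axis) of the tested genes of the 3 lists (y axis). The filled points passed: Anxa2, Procr, Anxa5 and F2r, and Prss22, all to the right of 0.

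Markers of other cell types moved with these genes in part. Of 12 fibroblast markers 7 rose and 0 fell, and their summed level was 87.0 to 196 CPM in surrounding tissue and 313 to 700.2 CPM in polyps, with none of the 12 at 0 in any library. Within mice 1119, 1192 and 1199 the fibroblast sum was 4.32, 3.60 and 3.58 times higher in the polyp. Plau relative to that sum moved by 0.36, -0.56 and -0.13 on the log2 scale, with a mean of -0.11. F3 relative to the same sum moved by 1.01, 3.21 and -0.59, Plat by 1.14, 2.88 and -0.77, Serpine2 by 0.96, 2.36 and -0.44 and Plaur by -0.86, 2.01 and -0.14. The part of fibroblast content in these differences was not tested.

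Of the 10 neutrophil markers 4 were tested and 0 passed, and the sum of the 10 was 3.49 to 27.5 CPM in surrounding tissue and 40.96 to 68.5 CPM in polyps. In the polyps of mice 1119, 1192 and 1199 most of it was Mmp9 (14.6, 23.7 and 25.0 CPM) and Ly6g (34.3, 16.0 and 24.7 CPM). The polyp of mouse 1192 had 0 counts of S100a8, S100a9, Cxcr2, Retnlg, Mpo, Elane and Ngp. The other 3 neutrophil markers, Mmp9, Ly6g and Csf3r, had 288, 195 and 15 counts there. In the polyp of mouse 1199 Mpo, Elane and Ngp were at 0 as well, and in that of mouse 1119 Mpo was. Of 12 macrophage and monocyte markers 9 were tested and 0 passed, with sums of 28.98 to 54.8 CPM in surrounding tissue and 50.1 to 68.8 CPM in polyps. Of those markers, Adgre1 was at 0 in the surrounding library of mouse 1119 and Cd68 in both polyps of mice 1119 and 1192 and the surrounding library of mouse 1192. Endothelial markers summed to 12.3 to 21.6 and 22.04 to 53.2 CPM, with 0 of 7 tested passing, Plvap, Tek and Emcn at 0 in the surrounding library of mouse 1192 and Lyve1 at 0 in its polyp.

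Relative to the epithelial sum, which was 1.25 to 1.63 times higher in polyps (3 of 10 markers rose), all of Plau, Plaur, Plat, Serpine2 and F3 were higher in each of the 3 mice. For F3 that difference was 2.64, 4.35 and 0.93 on the log2 scale in mice 1119, 1192 and 1199, and for Plau it was 1.98, 0.57 and 1.39. Smooth muscle markers went the other way (2 of 8 tested fell, 187 to 216 CPM against 23.1 to 83.98 CPM). Cnn1 and Lmod1 were at 0 in the polyp of mouse 1119. Ret, the only neuron and glia gene tested, rose, while 0 of 3 platelet and red cell genes and 0 of 1 mast cell gene passed. Sox10 and the mast cell genes Cpa3, Cma1 and Fcer1a were at 0 in all libraries. The summed levels were 4.56 to 7.21 and 17.9 to 21.5 CPM for neuron and glia genes, 4.699 to 32.9 and 16.5 to 55.4 CPM for platelet and red cell genes, and 3.41 to 6.12 and 4.59 to 7.81 CPM for mast cell genes. Most of the mast cell sum was Kit, at 3.03, 6.12 and 4.96 CPM in surrounding tissue and 4.23, 5.92 and 3.98 CPM in polyps. In polyps most of the neuron and glia sum was Ret (17.4, 21.3 and 17.5 CPM). What these cell types contributed to the 6 genes was not tested.

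**Figure D5:**
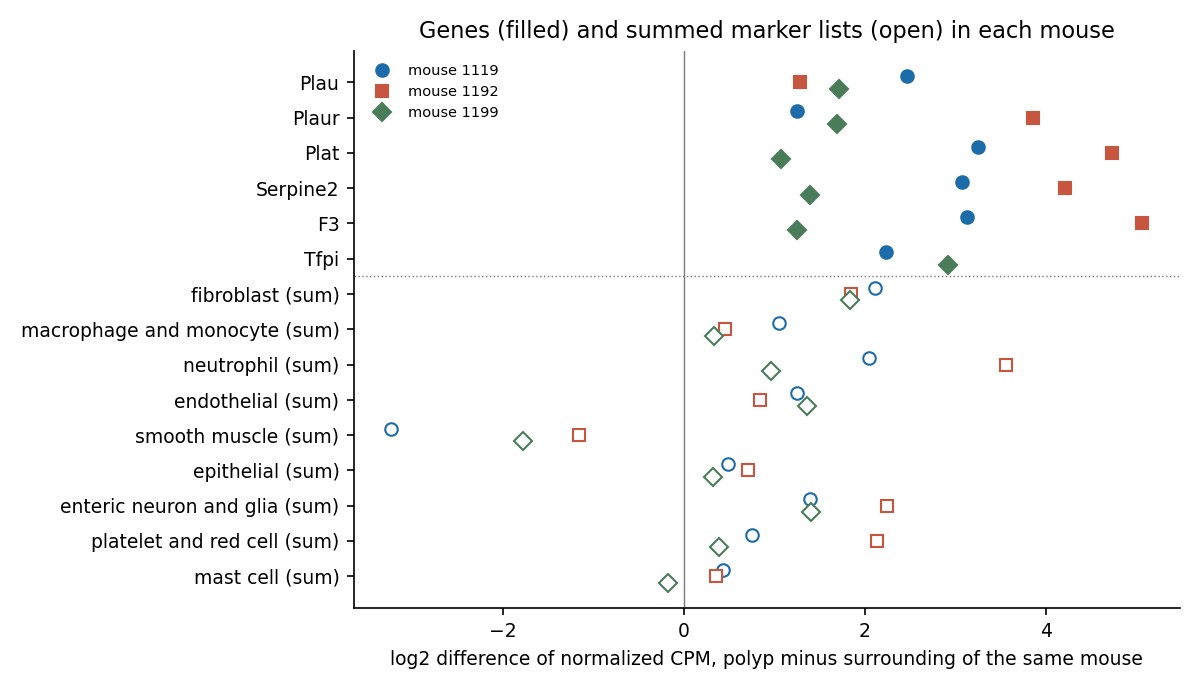
Log2 difference of normalized CPM, polyp minus surrounding tissue of the same mouse (x axis), for the 6 genes (filled) and for the summed marker lists (open); Tfpi has no point in mouse 1192, where the polyp had 0 counts. The fibroblast sums of the 3 mice lie together (1.84 to 2.11), while F3 runs from 1.25 to 5.06.

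The genes most alike in pattern to each member were taken by Pearson correlation of log2 CPM over the 6 libraries, among 5636 genes, as a description in which the tissue difference and the library scaling are shared by all points. Plau was most like Col1a1, a fibrillar collagen chain (r = 0.997), and F2r (r = 0.993). Plaur was most like Mmp9, a gelatinase gene (r = 0.999), and Cd151 (r = 0.998), and Plat most like Rab31 (r = 0.987) and Bzw1 (r = 0.986). Serpine2 was most like Htatip2 (r = 0.999) and Crk (r = 0.998), F3 most like Tbc1d1 (r = 0.995) and Ly6a (r = 0.993), and Tfpi most like Nt5c3 (r = 0.967) and Camk2n1 (r = 0.966). A correlation does not measure size. Htatip2, Crk, Tbc1d1 and Ly6a had log2 fold changes of 0.43, 0.42, 0.46 and 1.25, against 2.81 for Serpine2 and 3.07 for F3. Each r was picked as among the highest of 5636 over 6 libraries, so its height is no test of likeness. Among the members, Serpine2 and F3 were the closest pair (r = 0.985) and Plat and Tfpi the least alike (r = 0.094). All correlations of Tfpi rest on few counts, from 0 to 44 a library.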

How the data were processed

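The deposited values are raw read counts per Ensembl mouse gene, 1 table per sample, not normalized by the authors, per the file headers. The submitters' processing notes list HTSeq 0.5.3p9, TopHat2 2.0.7 and Bowtie 0.12.9, with build, strand and settings not given in the sources used here. The labels' protocols describe RNA treated to enrich bacterial RNA and depleted of rRNA before library preparation. Whether the mouse counts come from RNA treated in this way is unclear, and what such treatment did to single mouse genes was not tested. GENCODE M21 named 32919 of 37991 identifiers. In it 0 other genes overlap a member, and no exact run longer than 20 bases is shared between transcripts of any 2 members.

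The test was that of edgeR 4.0.16 (under R 4.3.3, with TMM, filterByExpr with its minimum count of 10, robust spread, two-sided), which kept 10960 genes and all 6 members. Standard errors come from the edgeR statistic, whose 2 residual degrees of freedom are joined by prior ones, with a median of 6.63 over the genes. In the robust fit the prior number can differ between genes. The mouse was a block, because the design text calls the samples paired and their titles hold the number of the mouse. Deviations from tissue means correlated at 0.0719, 0.127 and 0.159 within mice and at -0.1199 to -0.00294 between them. Since each tissue was centred on its own mean, positive values within mice force negative ones between mice on average, so this contrast is no test of the pairing. Floors of 3 counts use the normalized library sizes. Correlations used log2(CPM + 0.25). Alternatives were DESeq2 1.42.0, limma-voom (limma 3.58.1), other scalings and filters, no block and leaving out each mouse. The fit was tested on simulated data. Members and lists were chosen with earlier results of these data known. Named genes are the 6 members; Serpinb2, Plg, Anxa2, S100a10, F2r and F2rl1; in each of 3 lists the called genes and then those of smallest p up to 4; and the 2 genes most alike to each member, with a mean log2 CPM of at least 3 and a proper name. The planned ratio of F3 to Tfpi was not computed, as Tfpi had 3 counts or fewer in some libraries. Figures used Python 3.11.15. 1 gene of the plasminogen list is not reported here and is left out of that list's counts.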

Additional observations from a re-analysis of the deposited data

How the results depend on the processing

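Direction held for all 6 members under every alternative in which they were tested (Tfpi was not tested with a mean of at least 5 CPM or without mouse 1119). Plau and Serpine2 each passed under 9 of 12 alternatives, Plaur and Plat under 4, F3 under 3 and Tfpi under 0 of 10. The number of members called was 0 without the replicate block, 4 without a filter, and 5 with DESeq2 and with limma-voom; leaving out 1 mouse gave 0 to 3. The genes called among all tested, 303 in the main analysis, numbered 87 without the replicate block, 753 without a filter and 541 with DESeq2, and 83 to 281 with 1 mouse left out. Without the replicate block, 0 genes of the plasminogen list, 1 of the coagulation list and 0 of the epithelial protease list passed; without a filter 2 of the plasminogen list passed. With 1 mouse left out these lists had 0 to 1, 0 to 2 and 0 to 1 called genes, 0 in each without mouse 1119. Ratios without 1 mouse ran from -2.11 to -0.07 for Plau over Plat, -1.76 to -0.14 for Plau over Serpine2, -0.07 to 0.35 for Plat over Serpine2 and -0.62 to 1.28 for Plaur over Plau. The reversed ones, -0.071 and -0.617, were without mouse 1192; the cause was not tested. Of the members Tfpi had the fewest counts, 0 to 44 a library.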
